A study of Mus musculus with 4 samples.

Results

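Levels and detection of 10 genes of B cell activation and survival were measured in B cells and other cells of the mouse liver. The genes were *Cd80*, *Cd86*, *Cd83*, *Cd200*, *Mreg*, *Tnfrsf13c*, *Tnfrsf13b*, *Tnfsf13b*, *Fcer2a* and *Ly6d*. They were chosen by symbol, and all 10 were among the 31053 genes of the count tables. Liver mononuclear cells of C57BL/6 mice aged 8 to 10 weeks were profiled with 10x single-cell RNA sequencing in 4 libraries, 1 per group. Mice labelled Naïve were without ConA, and the ConA+Veh, ConA+TCDD and ConA+FICZ mice received concanavalin A (ConA), a lectin used to activate T cells and inflame the liver, and vehicle, TCDD or FICZ. TCDD is a dioxin and FICZ a tryptophan derivative, and both bind the aryl hydrocarbon receptor (AhR), a transcription factor activated by its ligands. Cells were taken 24 hours after ConA. The label of the ConA+Veh library names ConA only, and its vehicle is known from the study's methods. The sources used here give no dose of FICZ and no number of mice behind a library. ConA+TCDD and ConA+FICZ are therefore set side by side, and no ratio between them was taken. An order of their levels below is one of libraries and not of ligands.

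B cells that meet antigen or T cell help display costimulatory ligands on their surface. CD80 and CD86 bind CD28 and CTLA-4 on T cells, CD83 keeps MHC class II and CD86 on the cell surface, and CD200 signals through the CD200 receptor to restrain myeloid cells. Survival of mature B cells depends on the cytokine BAFF, encoded by *Tnfsf13b*, which acts through the BAFF receptor encoded by *Tnfrsf13c*, and also binds TACI, encoded by *Tnfrsf13b*. *Fcer2a* encodes CD23, the low-affinity IgE receptor of follicular B cells, and *Ly6d* a surface protein of the B lineage. *Mreg* encodes melanoregulin, a protein of vesicle transport and organelle maturation.

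A cell was taken as a B cell when its unique molecular identifiers (UMIs, 1 per captured RNA molecule) of *Cd79a*, *Cd79b* and *Ms4a1* summed to at least 3. This gave 3050 B-gated cells of 9300, namely 1081 of 2086 in Naïve (51.8%), 827 of 2779 in ConA+Veh (29.8%), 350 of 1880 in ConA+TCDD (18.6%) and 792 of 2555 in ConA+FICZ (31.0%). The gated cells carried all 4 of the check markers *Cd22*, *Pax5*, *Ebf1* and *Cd37* in each library, at a summed level of 1234 to 3359 counts per 1000000 UMIs (CPM), against 74.4 to 260 CPM in T-gated cells. In NK cells and plasmacytoid dendritic cells, gated as given below, the B cell check markers summed to 324 to 409 and 269 to 509 CPM. There 1 to 3 of the 4 were detected in a library. The T cell check genes *Trac*, *Trbc2*, *Cd2* and *Lck* summed to 266 to 309 CPM in the B-gated cells, against 880 to 1673 CPM in T-gated cells. The median B-gated cell held 2142 UMIs in Naïve, 4398 in ConA+Veh, 4004 in ConA+TCDD and 3928 in ConA+FICZ. Naïve B-gated cells therefore held the fewest UMIs, and levels are given per UMI. Depth below means UMIs per cell. The median T-gated cell held 2995 UMIs in Naïve and 7798 in ConA+Veh, and the median neutrophil, gated as given below, 2078 and 2313. Whether the gap in B-gated cells came from sequencing or from the RNA content of the cells was not tested. Library totals ran from 5952445 to 19252211 UMIs. Summed over all pairs of libraries, 45 cell barcodes occurred in both, 7 of them B-gated in both, and these were kept as separate cells.

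Values in parentheses after a level or a ratio are 95% intervals, from the exact Poisson distribution of a UMI sum or the exact binomial distribution of a pair of sums, and those after a share of cells are exact Clopper-Pearson intervals. Only counting error enters them. A difference has no replicate check where a group is 1 library, and each comparison is one of libraries. For shares of cells with a UMI, 1000 UMIs were also drawn from each cell, which leaves out cells with fewer. Where 4 values of one kind follow each other they are in the order Naïve, ConA+Veh, ConA+TCDD, ConA+FICZ. Gene positions are those of GRCm38, and all 10 genes are protein-coding.

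**Figure D1:**
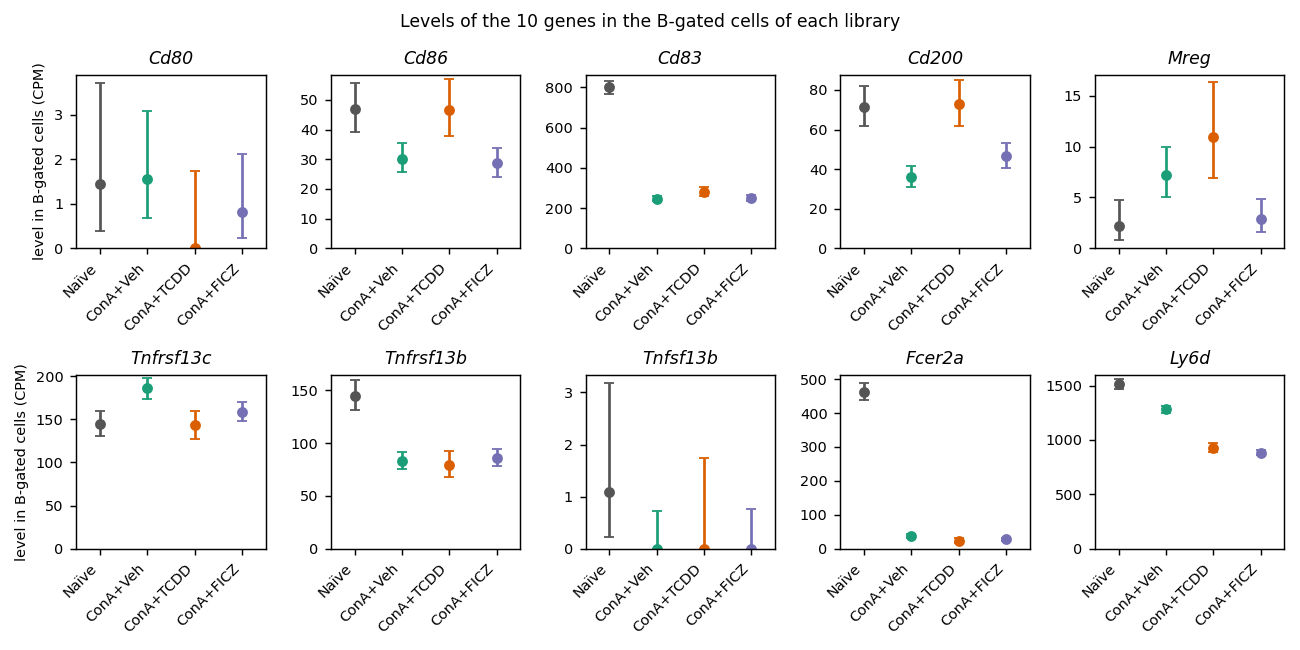
Level (CPM, linear axis from 0) of each of the 10 genes in the B-gated cells of the 4 libraries, with points for the library and bars for the exact Poisson 95% interval. *Cd83* and *Fcer2a* were highest in Naïve (800 and 463 CPM), while *Cd200* was about level in Naïve and ConA+TCDD (71.5 and 72.7 CPM) and lower in the other two libraries.

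*Cd86* (ENSMUSG00000022901, chromosome 16 from 36603869 to 36666081, minus strand) encodes the CD28 ligand that B cells raise on activation. Naïve B-gated cells held it at 46.8 CPM (39.1 to 55.6), compared with 30.2 CPM (25.7 to 35.4) with ConA+Veh, 46.7 CPM (38.0 to 56.9) with ConA+TCDD and 28.6 CPM (24.1 to 33.8) with ConA+FICZ. Naïve and ConA+TCDD stood at the same level, above the intervals of ConA+Veh and ConA+FICZ. On the log2 scale ConA+Veh differed from Naïve by −0.63 (−0.98 to −0.28), ConA+TCDD from ConA+Veh by 0.63 (0.25 to 1.0) and ConA+FICZ from ConA+Veh by −0.08 (−0.42 to 0.26). The first of these turned to 0.65 when UMIs per cell were compared with no correction for depth, the second to −0.01 when the B cell gate was scaled to each cell's depth, and the last to 0.26 when each cell counted equally. At equal depth 4.54%, 2.30%, 5.99% and 3.12% of B-gated cells had a *Cd86* UMI in the 4 libraries, and 10.7%, 13.9%, 21.1% and 14.1% did unthinned. Thinned T-gated cells, which should hold little of it, had a *Cd86* UMI in at most 0.784%, and their median depth before thinning was 2995 to 9250 UMIs.

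*Cd80* (ENSMUSG00000075122, chromosome 16 from 38455561 to 38496335, plus strand) encodes the other CD28 ligand and was almost not found in the B-gated cells. They held 4 *Cd80* UMIs in Naïve, 8 in ConA+Veh, 0 in ConA+TCDD and 4 in ConA+FICZ, too few for a ratio. In ConA+TCDD, 0 of 350 cells had a UMI, and a count of 3 would be 1.42 CPM.

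*Cd83* (ENSMUSG00000015396, chromosome 13 from 43784775 to 43803132, plus strand) encodes a marker of activated B cells and mature dendritic cells. Its level was 800 CPM (767 to 834) in the Naïve library, compared with 247 CPM (234 to 261) with ConA+Veh, 282 CPM (260 to 306) with ConA+TCDD and 251 CPM (237 to 265) with ConA+FICZ. All 3 ConA libraries lay far below Naïve and close to each other. ConA+Veh was 3.24-fold below Naïve, a log2 ratio of −1.69 (−1.80 to −1.59), and −0.41 with no correction for depth. Set against ConA+Veh, the ratio was 0.19 (0.05 to 0.33) in ConA+TCDD and 0.02 (−0.09 to 0.14) in ConA+FICZ. At equal depth a *Cd83* UMI was found in 49.5% (46.4 to 52.5) of Naïve B-gated cells, and in 24.2% of ConA+Veh, 27.2% of ConA+TCDD and 24.3% of ConA+FICZ cells. The unthinned shares were 69.9%, 64.8%, 67.7% and 61.9%, and the T-gated background at equal depth was 0 to 2.16%.

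*Cd200* (ENSMUSG00000022661, chromosome 16 from 45382135 to 45409053, minus strand) encodes the inhibitory ligand. B-gated cells of Naïve had it at 71.5 CPM (61.8 to 82.2), compared with 35.9 CPM (30.9 to 41.5) with ConA+Veh, 72.7 CPM (61.7 to 85.1) with ConA+TCDD and 46.6 CPM (40.7 to 53.0) with ConA+FICZ. As for *Cd86*, Naïve and ConA+TCDD stood together above ConA+Veh, with ConA+FICZ between. Log2 ratios were −0.99 (−1.29 to −0.70) between ConA+Veh and Naïve, 1.02 (0.70 to 1.33) between ConA+TCDD and ConA+Veh and 0.38 (0.09 to 0.66) between ConA+FICZ and ConA+Veh. The first turned to 0.29 with no correction for depth. In thinned B-gated cells a *Cd200* UMI was found in 7.38%, 4.35%, 9.58% and 6.64% of the 4 libraries, and unthinned in 15.4%, 18.1%, 26.3% and 20.7%. Thinned T-gated cells held it in 0.713% to 2.35%.

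*Mreg* (ENSMUSG00000039395, chromosome 1 from 72159442 to 72212307, minus strand) was scarce in the B-gated cells. The Naïve level was 2.18 CPM (0.799 to 4.74), compared with 7.22 CPM (5.08 to 9.95) with ConA+Veh, 10.9 CPM (6.88 to 16.3) with ConA+TCDD and 2.88 CPM (1.58 to 4.84) with ConA+FICZ. These levels rest on 6, 37, 23 and 14 UMIs, and ConA+Veh and ConA+TCDD lay above the intervals of the other libraries. As log2 ratios, ConA+Veh to Naïve was 1.73 (0.47 to 3.26), ConA+TCDD to ConA+Veh 0.59 (−0.23 to 1.38) and ConA+FICZ to ConA+Veh −1.32 (−2.33 to −0.40). The first of these was 0.80 and the second 1.03 when B cells were gated on *Cd22*, *Pax5* and *Ebf1* instead. At equal depth an *Mreg* UMI was found in 0.284% (0.0586 to 0.827), 1.28% (0.616 to 2.34), 1.20% (0.327 to 3.04) and 0.521% (0.142 to 1.33) of B-gated cells, intervals that overlap. Of all *Mreg* UMIs of a library, the B-gated cells held 26.1% in Naïve, 50% in ConA+Veh, 23.7% in ConA+TCDD and 41.2% in ConA+FICZ. Most of the gene's UMIs thus lay outside the gate in Naïve, ConA+TCDD and ConA+FICZ.

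*Cd200* and *Mreg* were the genes that passed 2-fold between a ligand library and ConA+Veh, and AhR binds DNA with its partner ARNT at a core motif GCGTG, so their promoters are shown from RefSeq (GRCm38.p6), 5′ to 3′ on the gene's strand, with the motif on either strand in capitals. Each covers 250 bases before the annotated start and 10 from it, at chr16:45409044-45409303, minus strand, and chr1:72212305-72212564, minus strand.

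*Cd200*: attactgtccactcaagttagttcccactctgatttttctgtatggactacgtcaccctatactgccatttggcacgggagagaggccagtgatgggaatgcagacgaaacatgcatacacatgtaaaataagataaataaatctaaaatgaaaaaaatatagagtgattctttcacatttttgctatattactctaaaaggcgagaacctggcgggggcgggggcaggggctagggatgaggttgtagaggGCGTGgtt

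*Mreg*: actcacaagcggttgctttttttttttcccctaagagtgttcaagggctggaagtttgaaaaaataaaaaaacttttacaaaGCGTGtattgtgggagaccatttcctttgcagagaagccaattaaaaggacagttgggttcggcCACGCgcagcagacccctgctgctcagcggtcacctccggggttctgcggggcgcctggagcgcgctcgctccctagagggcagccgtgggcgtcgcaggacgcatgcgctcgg

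The *Cd200* window held 1 copy, which began 2 bases after the first transcribed base. The *Mreg* window held 2, 1 on each strand, 168 and 104 bases before the start. Of the 10 genes, 7 were matched in the promoter table by symbol, with 11 windows of 300 bases, and 3 windows (27.3%) of 2 genes held the motif, against 10639 of all 32851 windows (32.4%). *Cd86*, *Cd83* and *Ly6d* had no entry. A match of 5 letters is a description of the sequence.

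*Tnfrsf13c* (ENSMUSG00000068105, chromosome 15 from 82221743 to 82224369, minus strand), the BAFF receptor, lay within a narrow range in the 4 libraries. Naïve B-gated cells held it at 145 CPM (131 to 160), compared with 186 CPM (174 to 198) with ConA+Veh, 143 CPM (127 to 160) with ConA+TCDD and 159 CPM (148 to 170) with ConA+FICZ. ConA+Veh was highest, with an interval above those of the other 3 libraries. ConA+Veh exceeded Naïve by a log2 ratio of 0.36 (0.19 to 0.53), or 1.64 with no correction for depth, and against ConA+Veh the ratio was −0.38 (−0.58 to −0.20) in ConA+TCDD and −0.23 (−0.37 to −0.09) in ConA+FICZ. A UMI was present in 11.3%, 17.0%, 11.7% and 11.8% of the thinned B-gated cells, against 25.3%, 53.1%, 46.3% and 43.3% unthinned, and T-gated cells at equal depth at most 0.588%.

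*Tnfrsf13b* (ENSMUSG00000010142, chromosome 11 from 61126755 to 61149372, plus strand), which encodes TACI, stood at 145 CPM (131 to 160) in the Naïve library, compared with 83.1 CPM (75.4 to 91.4) with ConA+Veh, 79.3 CPM (67.8 to 92.2) with ConA+TCDD and 86.1 CPM (78.0 to 94.8) with ConA+FICZ. Neither ligand library differed from ConA+Veh beyond counting error, and all 3 ConA libraries lay below Naïve. ConA+Veh was below Naïve by a log2 ratio of −0.80 (−1.0 to −0.60), which turned to 0.48 with no correction for depth. Against ConA+Veh it was −0.07 (−0.33 to 0.19) in ConA+TCDD, which turned to 0.28 when each cell counted equally, and 0.05 (−0.15 to 0.25) in ConA+FICZ. At equal depth a UMI was found in 14.4%, 5.38%, 7.19% and 7.42% of B-gated cells and in 28.0%, 29.6%, 32.0% and 30.7% unthinned. T-gated cells at equal depth had it in 0.196% to 1.89%.

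The ligand itself, *Tnfsf13b* (ENSMUSG00000031497, chromosome 8 from 10006467 to 10039072, plus strand), gave 8 to 13 UMIs in a whole library. B-gated cells held 3 in Naïve and 0 in each of the ConA libraries, where 3 counts would be 0.585 to 1.42 CPM. No comparison of the ligand was possible at this depth.

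*Fcer2a* (ENSMUSG00000005540, chromosome 8 from 3681737 to 3694175, minus strand), which encodes CD23, showed the widest gap between Naïve and the ConA libraries among the 10 genes. Its level was 463 CPM (438 to 489) in the Naïve library, compared with 36.7 CPM (31.6 to 42.3) with ConA+Veh, 23.6 CPM (17.5 to 31.1) with ConA+TCDD and 27.4 CPM (22.9 to 32.5) with ConA+FICZ. ConA+Veh was 12.6-fold below Naïve, a log2 ratio of −3.66 (−3.89 to −3.44), and −2.38 with no correction for depth. Per UMI, ConA+TCDD and ConA+FICZ were lower still than ConA+Veh, at −0.64 (−1.12 to −0.18) and −0.42 (−0.75 to −0.09). At equal depth, *Fcer2a* was detected in 36.6% (33.7 to 39.6) of Naïve B-gated cells. In the ConA libraries these shares were 4.87% (3.47 to 6.62), 3.29% (1.66 to 5.82) and 3.78% (2.54 to 5.38), intervals that overlap. Unthinned, the shares of the 4 libraries were 60.3%, 13.5%, 7.71% and 11.7%. T-gated cells at equal depth held it in at most 0.238%.

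*Ly6d* (ENSMUSG00000034634, chromosome 15 from 74762056 to 74763620, minus strand) gave the most UMIs of the 10 genes. B-gated cells of Naïve had it at 1516 CPM (1470 to 1563), compared with 1280 CPM (1249 to 1311) with ConA+Veh, 929 CPM (888 to 971) with ConA+TCDD and 883 CPM (857 to 910) with ConA+FICZ. ConA+Veh lay below Naïve, and the libraries of both AhR ligands lay below ConA+Veh. In ConA+TCDD the level also depended on how many UMIs of *Cd79a*, *Cd79b* and *Ms4a1* a cell held, given below. Log2 ratios were −0.24 (−0.30 to −0.19) from Naïve to ConA+Veh, and from ConA+Veh −0.46 (−0.54 to −0.39) to ConA+TCDD and −0.54 (−0.59 to −0.48) to ConA+FICZ. The first turned to 0.05 when each cell counted equally and to 1.04 with no correction for depth. A *Ly6d* UMI was found in 66.7%, 62.5%, 49.7% and 51.6% of thinned B-gated cells, in 82.0%, 85.7%, 75.4% and 79.4% unthinned, and in at most 0.423% of thinned T-gated cells.

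Across the genes, 8 of the 10 had at least 30 UMIs in each pair of libraries, while *Cd80* and *Tnfsf13b* did not. For ConA+Veh over Naïve, 1 of the 8 (*Mreg*) was at least 2-fold higher, where 7.81% of the 9038 genes tested were, and 2 (*Fcer2a* and *Cd83*) were at least 2-fold lower, where 18.0% of genes were. In number these genes did not stand apart from all genes tested. The median log2 ratio was −0.72 for the 8 genes and −0.27 for all genes tested, so the CPM of a typical gene was itself lower in ConA+Veh. For ConA+TCDD over ConA+Veh, 1 of 8 (*Cd200*) was at least 2-fold higher against 0.836% of 8610 genes, and 0 of 8 were 2-fold lower against 2.65%, with a median of 0.06 beside 0.02 for all genes. *Cd200* lay at the 2-fold line, at 2.03-fold, and was just short of it, at a log2 ratio of 0.99, when cells that met several gates were left out, and at 0.98 when B cells were gated on *Cd22*, *Pax5* and *Ebf1*. For ConA+FICZ over ConA+Veh, 0 of 8 were 2-fold higher against 2.04% of 9261 genes, and 1 (*Mreg*, 2.5-fold) was 2-fold lower against 1.27%, with a median of −0.15 beside 0.06. Both comparisons with a ligand share the ConA+Veh library.

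**Figure D2:**
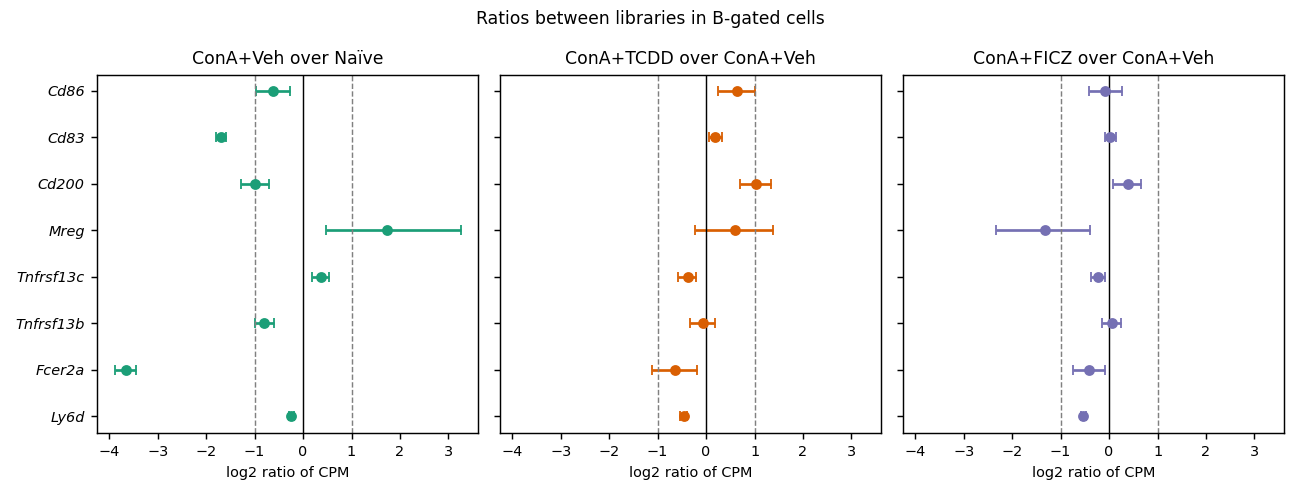
Log2 ratio of CPM in B-gated cells for the 8 genes with at least 30 UMIs, with the exact 95% interval as bars, in 3 panels, ConA+Veh over Naïve on the left, then ConA+TCDD and ConA+FICZ, each over ConA+Veh. The solid line marks no difference and the dashed lines mark 2-fold, which *Fcer2a*, *Cd83* and *Mreg* passed on the left, *Cd200* in the middle and *Mreg* on the right.

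Past 2-fold, genes that act with the 10 were more often lower than higher in ConA+Veh against Naïve. All genes tested leaned the same way, with 18.0% at least 2-fold lower and 7.81% higher. Of 7 measured genes of BAFF signalling, 4 were at least 2-fold lower and 0 higher, beside the same 18.0% of all genes. They were *Map3k14*, which encodes the kinase NIK of the noncanonical NF-κB pathway, at 9.36 against 33.7 CPM, the ubiquitin ligases *Birc2* (22.8 against 68.6 CPM) and *Birc3* (58.3 against 163 CPM), and *Nfkb2* (49.0 against 100 CPM). The median log2 ratio of the 7 was −1.03, beside −0.27 for all genes. Ratios of the lists here and below were taken per UMI only, and UMIs per cell were not compared. Unthinned, *Map3k14* was found in 5.80% of ConA+Veh and 7.68% of Naïve B-gated cells. *Birc2* was in 13.1% and 15.0%, *Birc3* in 28.3% and 31.7% and *Nfkb2* in 23.8% and 21.5%. At equal depth these shares were 0.640% and 4.07%, 2.82% and 7.85%, 8.96% and 17.2%, and 5.12% and 11.3%. Of 15 genes of B cell activation, 6 were 2-fold lower and 0 higher, with *Nfkbid* at 60.3 against 394 CPM, *Nr4a1* at 147 against 766 CPM and *Irf4* at 41.6 against 181 CPM as the widest gaps, and a median of −0.69. Others of the list were higher by less than 2-fold. Log2 ratios were 0.76 (0.45 to 1.08) for *Traf1*, 0.71 (0.32 to 1.12) for *Bhlhe40* and 0.51 (0.15 to 0.87) for *Batf*. *Nr4a1* is an immediate-early gene of antigen receptor signalling and *Irf4* a transcription factor of activated B cells. Of 8 partners and relatives of the costimulation genes, 3 were 2-fold lower, namely *Pdcd1lg2*, *Icosl* and *Cd274*, ligands of PD-1 and ICOS, while *Icos* itself, a T cell gene, was 2-fold higher (7.80 against 2.90 CPM). *Cd40*, the receptor for T cell help, was at 53.1 against 96.5 CPM. *Cd28* and *Ctla4*, the T cell receptors for CD80 and CD86, were also counted in the B-gated cells, at 11.7 and 25.6 CPM in ConA+Veh. In the same cells 1.81% of ConA+Veh and 1.02% of Naïve also met the T cell gate, and the part of those cells in these values was not tested.

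Markers of B cell stages differed in both directions between Naïve and ConA+Veh. Of 8 genes of follicular and naive B cells, the stage that carries CD23, 5 were 2-fold lower and 0 higher, with *Siglecg* at 70.4 against 309 CPM, *Klf2* at 330 against 1318 CPM and *Cr2*, the complement receptor CD21, at 21.3 against 82.7 CPM, and a median of −1.30, beside 18.0% lower, 7.81% higher and a median of −0.27 over all genes tested. Of 7 genes of marginal zone and B1 cells, *S100a6* (268 against 49.0 CPM) and *Zbtb32* (26.5 against 11.6 CPM) were higher and *Cd1d1* (6.63 against 24.3 CPM) lower, with a median of 0.33. Of 7 germinal centre and plasma cell genes, *Jchain*, which joins antibody chains (219 against 11.6 CPM), and *Mki67*, a gene of cycling cells (73.7 against 17.4 CPM), were higher and *Sdc1* (1.76 against 10.9 CPM) lower, with a median of 0.69. The *Jchain* level rests on few cells, since its 1121 UMIs in ConA+Veh lay in 6 of 827 B-gated cells, 648 of them in 1 cell, and the 32 of Naïve in 3 of 1081 cells. The share of cells with a *Jchain* UMI was 0.726% (0.267 to 1.57) in ConA+Veh and 0.278% (0.0573 to 0.809) in Naïve, intervals that overlap. *Mki67* was found in 117 cells of ConA+Veh and 5 of Naïve. None of 3 measured genes of transitional cells passed 2-fold.

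Between the ConA libraries few genes of these lists passed 2-fold. For ConA+TCDD over ConA+Veh, 0 of 7 BAFF signalling genes, 0 of 8 costimulation partners, 0 of 15 activation genes and 0 of 8 follicular genes passed 2-fold in either direction, where 0.836% of all genes were higher and 2.65% lower, so the counts of 0 do not set these lists apart. Their medians were 0.09, 0.01, 0.20 and −0.43, and those of the marginal zone, transitional and germinal centre lists −0.55, −0.55 and −0.25, beside 0.02 for all genes. In the latter lists *Cd9* was 2-fold higher (36.8 against 16.2 CPM), and *Cd5* (1.89 against 6.83 CPM) and *Cd93* (2.83 against 6.24 CPM, an interval of the log2 ratio from −2.69 to 0.14) were 2-fold lower. A single cell held 20 of the 78 *Cd9* UMIs of ConA+TCDD, and at equal depth *Cd9* was found in 1.5% of ConA+TCDD and 1.54% of ConA+Veh cells. *Cd5* rests on 4 UMIs in ConA+TCDD and 35 in ConA+Veh. At equal depth it was found in 0.299% (0.00758 to 1.66) and 0.768% (0.282 to 1.66) of their cells, intervals that overlap. *Jchain* had 0 UMIs in the 350 B-gated cells of ConA+TCDD, which allows a share of cells of up to 1.05%, above the 0.726% of ConA+Veh. For ConA+FICZ over ConA+Veh the same 4 lists again had 0 genes past 2-fold, where 2.04% of all genes were higher and 1.27% lower. Their medians were 0.30, −0.01, −0.06 and 0.01, and those of the marginal zone, transitional and germinal centre lists 0.07, −0.47 and −0.22, beside 0.06 for all genes. In the latter lists 1 gene, *Jchain*, passed 2-fold, at 77.0 against 219 CPM, but 299 of its 374 UMIs in ConA+FICZ were in 1 cell and it was found in 4 cells there (0.505%, 0.138 to 1.29), a share within the interval of ConA+Veh.

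By their share of a library's UMIs, the 10 genes divided into those held mostly by B-gated cells and those that other cells shared. Cells that met no B cell gate and exactly 1 of 7 others were taken as T, NK, mononuclear phagocyte, mature dendritic, plasmacytoid dendritic, neutrophil or endothelial cells, by 3 marker genes each. B-gated cells held 79.1% to 97.8% of the *Tnfrsf13c* UMIs of a library, 80.6% to 98.8% of *Fcer2a*, 77.3% to 94.8% of *Ly6d* and 70.6% to 95.5% of *Cd83*. The lowest of each range was ConA+TCDD, the library with the smallest share of B-gated cells and the largest share of cells that met no gate. Cells of no gate were 16.0%, 23.6%, 40.5% and 27.1% of the libraries. In ConA+TCDD the 7 other gates held 0% of the *Fcer2a* UMIs, so the rest lay in cells of no gate or of several. The shares held by B-gated cells also depend on how many cells of each type there were. *Cd83* and *Ly6d* were also found in dendritic cells, given below.

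Costimulation genes were found in myeloid cells. *Cd86* in mononuclear phagocytes stood at 33.2 CPM (18.2 to 55.7) in the Naïve library, compared with 33.3 CPM (26.5 to 41.3) with ConA+Veh, 22.9 CPM (14.5 to 34.4) with ConA+TCDD and 26.3 CPM (19.4 to 34.8) with ConA+FICZ, and neither ConA+Veh and Naïve nor a ligand library and ConA+Veh differed beyond counting error. Per UMI, ConA+TCDD was not above ConA+Veh in this cell type, unlike in B-gated cells. At equal depth 5.36% (1.12 to 14.9) of ConA+TCDD phagocytes had a *Cd86* UMI, beside 4.78% (2.32 to 8.62) for ConA+Veh. Unthinned the shares were 32.1% and 24.2%, at median depths of 16053 and 8792 UMIs. The intervals at equal depth overlap, so those shares neither order these libraries nor set phagocytes apart from B-gated cells. Of the types with at least 20 cells, *Cd80* was highest in neutrophils, at 64.1, 90.3, 74.2 and 72.3 CPM, on 3, 21, 5 and 44 UMIs. Neutrophil check genes (*S100a8*, *S100a9* and *Il1r2*) summed to 519 and 645 CPM in the B-gated cells of ConA+Veh and ConA+FICZ and to 25.0 and 17.9 CPM in those of Naïve and ConA+TCDD, and their part in the few *Cd80* UMIs of B-gated cells was not tested. *Cd83* in mononuclear phagocytes stood at 52.2 CPM (32.7 to 79.0) in the Naïve library, compared with 30.4 CPM (23.9 to 38.2) with ConA+Veh, 5.99 CPM (2.20 to 13.0) with ConA+TCDD and 6.56 CPM (3.39 to 11.5) with ConA+FICZ. Per UMI the libraries of both ligands lay below ConA+Veh there, whereas in B-gated cells the 3 were close. A single phagocyte of ConA+Veh held 21 of the 75 *Cd83* UMIs. At equal depth the shares of phagocytes with a UMI were 4.31% (1.99 to 8.02) in ConA+Veh, 0% (0 to 6.38) in ConA+TCDD and 1.10% (0.133 to 3.91) in ConA+FICZ. These intervals overlap, so the shares give no order of the 3 libraries.

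*Cd200* in T cells stood at 20.3 CPM (14.2 to 28.3) in the Naïve library, compared with 10.3 CPM (8.20 to 12.8) with ConA+Veh, 23.4 CPM (19.5 to 27.9) with ConA+TCDD and 18.8 CPM (15.5 to 22.7) with ConA+FICZ. Per UMI ConA+Veh was lowest, as in the B-gated cells, with an interval below those of the other libraries. The Naïve level rests on 35 UMIs in 13 cells, that of ConA+TCDD on 127 in 70 and that of ConA+Veh on 83 in 67. At equal depth the shares of T cells with a UMI were 0.713% (0.147 to 2.07), 1.27% (0.581 to 2.39), 2.35% (1.22 to 4.07) and 1.68% (0.727 to 3.28). Naïve was lowest and the intervals overlap, so these shares give no order of the libraries for T cells. NK cells, at 84 to 171 cells a library, held 0 *Cd200* UMIs in each library, where the upper limit of the interval was 5.19 to 19.1 CPM. Endothelial cells numbered 34, 14, 2 and 13 and held 1, 42, 0 and 31 *Cd200* UMIs, more in ConA+Veh than in Naïve, unlike B-gated cells. These were 10.0% of the *Cd200* UMIs of ConA+Veh and 7.35% of those of ConA+FICZ. They rest on few cells, with up to 16 UMIs in a cell. TACI was shared with plasmacytoid dendritic cells, given below, with mononuclear phagocytes and, at 7.75 to 9.55 CPM, with T cells. T cells held 3.24%, 12.8%, 14.0% and 9.51% of the *Tnfrsf13b* UMIs of the libraries, and phagocytes 5.18%, 8.65%, 9.63% and 9.14%. In the phagocytes *Tnfrsf13b* stood at 56.9 CPM (36.5 to 84.7) in the Naïve library, compared with 21.1 CPM (15.8 to 27.7) with ConA+Veh, 28.9 CPM (19.4 to 41.6) with ConA+TCDD and 27.4 CPM (20.3 to 36.1) with ConA+FICZ. Per UMI Naïve was highest, as in B-gated cells, and both ligand libraries overlapped ConA+Veh. The Naïve level rests on 24 UMIs, and its interval overlaps that of ConA+TCDD. At equal depth the shares of phagocytes with a UMI were 5.88% (1.63 to 14.4), 1.44% (0.297 to 4.14), 5.36% (1.12 to 14.9) and 3.30% (1.22 to 7.04), intervals that overlap.

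*Ly6d* was also a gene of plasmacytoid dendritic cells, which numbered 10 to 20 a library. In the 20 of ConA+Veh it stood at 5321 CPM on 376 UMIs, above the 1280 CPM of the B-gated cells of that library, and the 15, 14 and 10 such cells of Naïve, ConA+TCDD and ConA+FICZ held 74, 361 and 160 UMIs. They accounted for 14.2% of the *Ly6d* UMIs of ConA+TCDD and 1.68% of those of Naïve. The plasmacytoid dendritic cells of ConA+Veh also held *Tnfrsf13b* at 198 CPM (108 to 332) on 14 UMIs, above the 83.1 CPM (75.4 to 91.4) of its B-gated cells. Such cells of Naïve, ConA+TCDD and ConA+FICZ held 6, 8 and 8 *Tnfrsf13b* UMIs. Mature dendritic cells numbered 2 in Naïve, 18 in ConA+Veh, 9 in ConA+TCDD and 9 in ConA+FICZ and held 6, 21, 9 and 4 *Mreg* UMIs and 2, 45, 19 and 8 *Cd200* UMIs, respectively. They also held 12, 38, 10 and 10 *Cd83* UMIs. In ConA+Veh, 11 of the 18 had a *Cd83* UMI (61.1%, 35.7 to 82.7), beside 64.8% of the B-gated cells, both unthinned. Of all *Mreg* UMIs of a library the few mature dendritic cells held 9.28% to 28.4%. With B-gated cells that also met another gate left out, the log2 ratios of *Mreg* in B-gated cells were 1.78 for ConA+Veh against Naïve, 0.54 for ConA+TCDD and −1.22 for ConA+FICZ, both against ConA+Veh.

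**Figure D3:**
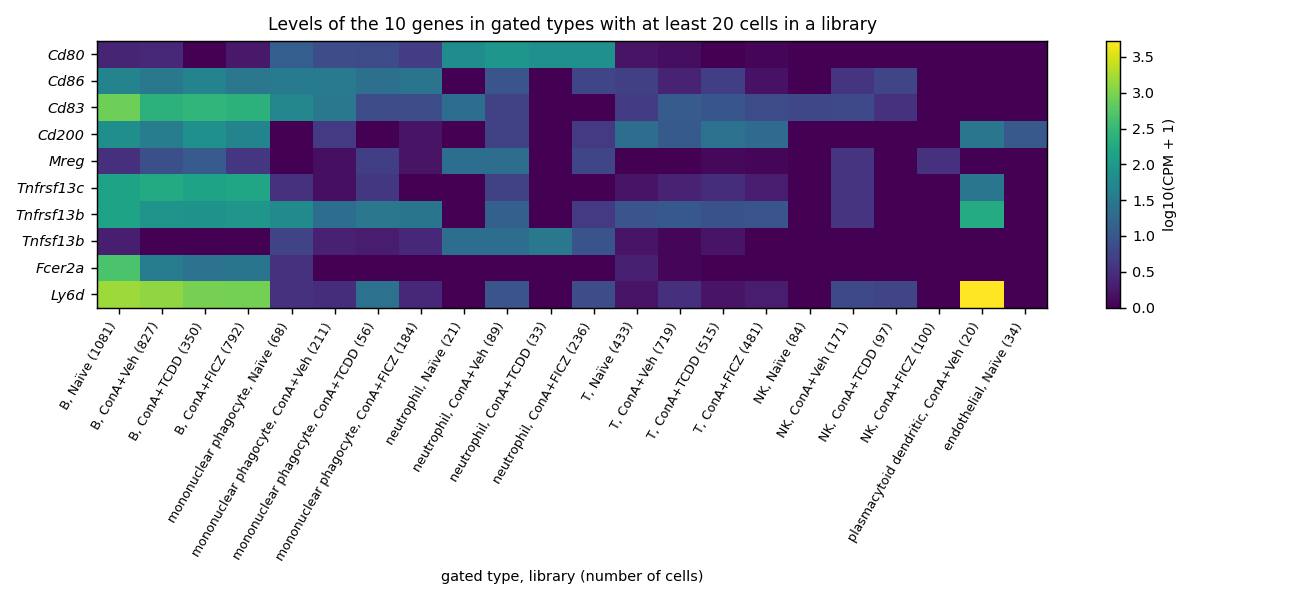
Level of the 10 genes, as log10(CPM + 1) by colour, in each gated cell type and library with at least 20 cells (number of cells in parentheses). *Tnfrsf13c* and *Fcer2a* were bright in the B-gated columns, *Cd80* in neutrophils, and *Ly6d* reached its highest value in the plasmacytoid dendritic cells of ConA+Veh, at 5321 CPM.

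Levels also depended on how many gate-gene UMIs a cell held. Among cells that met no other gate, those just outside the B cell gate, with 1 or 2 UMIs of *Cd79a*, *Cd79b* and *Ms4a1*, numbered 25 in Naïve, 83 in ConA+Veh, 107 in ConA+TCDD and 48 in ConA+FICZ. Those just inside, with 3 to 5 UMIs, numbered 89, 55, 72 and 82. In ConA+TCDD, *Cd86* was at 129 CPM (92.7 to 174) just outside, 158 CPM (111 to 218) just inside and 33.8 CPM (25.3 to 44.2) in the 219 cells with 11 or more UMIs. *Cd200* of the same library was at 135 CPM (97.9 to 181), 202 CPM (148 to 269) and 53.6 CPM (42.7 to 66.3). *Mreg* was at 85.7 CPM (57.0 to 124), 30.7 CPM (12.3 to 63.2) and 7.01 CPM (3.5 to 12.6). All 3 genes were thus higher in ConA+TCDD cells on either side of the threshold than in those with 11 or more gate-gene UMIs.

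In ConA+Veh the cells just outside held 30.4 CPM of *Cd86* (12.2 to 62.6), 26.1 CPM of *Cd200* (9.56 to 56.7) and 13.0 CPM of *Mreg* (2.69 to 38.1), and those just inside 59.5 CPM (19.3 to 139), 35.7 CPM (7.36 to 104) and 59.5 CPM (19.3 to 139). In the 642 ConA+Veh cells with 11 or more gate-gene UMIs the 3 genes were at 31.7 CPM (26.6 to 37.5), 39.0 CPM (33.3 to 45.4) and 7.04 CPM (4.75 to 10.0). At 11 or more UMIs, therefore, *Cd86* and *Mreg* of ConA+TCDD and ConA+Veh were within counting error, and the *Cd200* level of ConA+TCDD lay above the ConA+Veh interval, with intervals that overlap.

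Cells just outside the gate in ConA+TCDD carried *Cd74*, the invariant chain of MHC class II, at 10230 CPM and *Ebf1*, a B lineage transcription factor, at 273 CPM, against 12508 and 464 CPM in cells with 11 or more gate-gene UMIs, and *Cd3e* at 18.4 CPM. The cells with 0 gate-gene UMIs had 1853 CPM of *Cd74*, 36.1 CPM of *Ebf1* and 52.2 CPM of *Cd3e*. *Ly6d* and *Tnfrsf13c* ran the other way, with *Ly6d* at 156 CPM (116 to 205) just outside, 245 CPM (185 to 319) just inside and 1117 CPM (1066 to 1171) in ConA+TCDD cells with 11 or more gate-gene UMIs, and *Tnfrsf13c* at 98.0 CPM (67.0 to 138), 78.9 CPM (46.8 to 125) and 166 CPM (147 to 188). *Cd83* stayed at 239 CPM (189 to 298), 302 CPM (235 to 383) and 286 CPM (260 to 314). The median cell of these 3 groups held 2431, 2476 and 5296 UMIs, so cells with few gate-gene UMIs were also shallower, and the part of depth in the difference was not tested.

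In Naïve and ConA+FICZ the cells just outside the gate were few but also carried *Cd86* and *Mreg*. In Naïve, *Cd86* was at 145 CPM (62.6 to 286) and *Mreg* at 163 CPM (74.6 to 310) in the 25 such cells, on 8 and 9 UMIs, and in the 48 of ConA+FICZ at 169 CPM (96.4 to 274) and 31.6 CPM (6.52 to 92.4), on 16 and 3 UMIs.

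**Figure D4:**
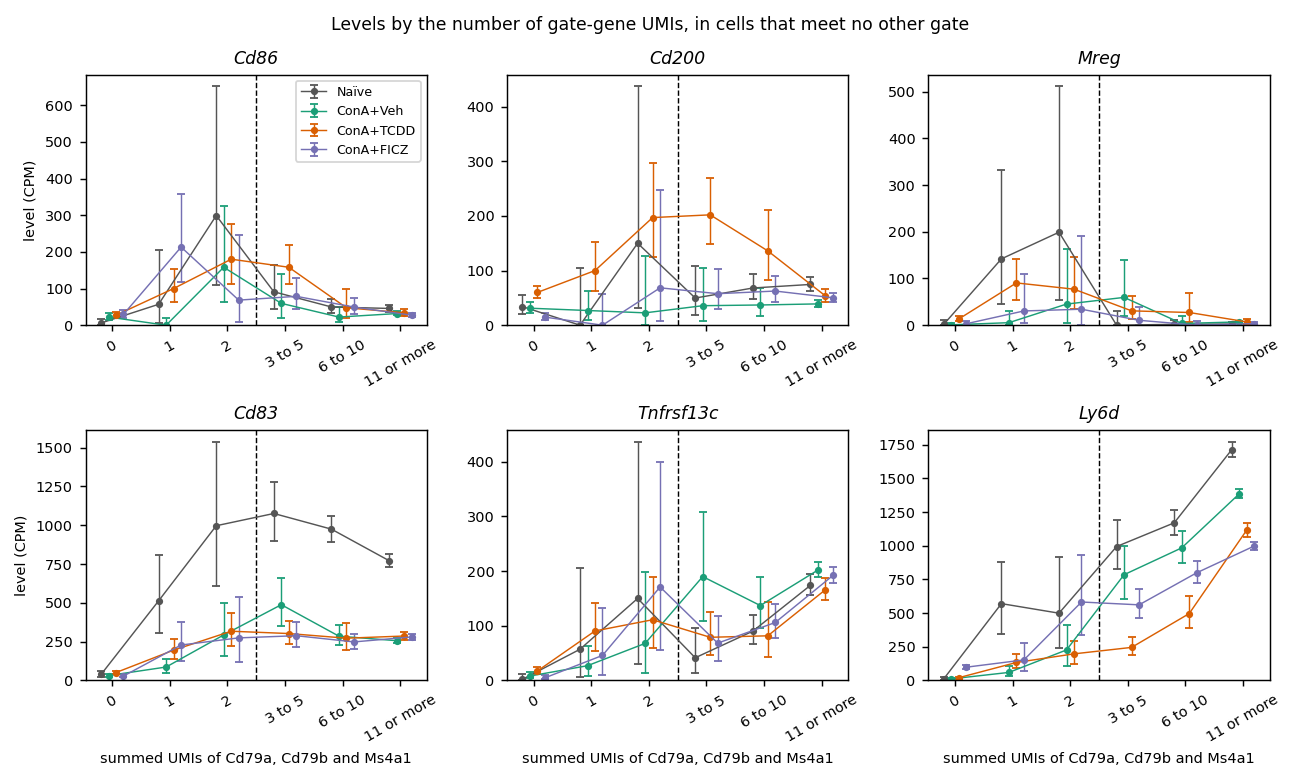
Level (CPM, linear axis from 0) of 6 of the genes by the summed UMIs of *Cd79a*, *Cd79b* and *Ms4a1* in cells that met no other gate, with the exact 95% Poisson interval as bars, colours for libraries and the dashed line for the gate threshold of 3. *Cd200* of ConA+TCDD peaked at 202 CPM in cells with 3 to 5 UMIs, while *Ly6d* was highest in each library at 11 or more UMIs.

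Joint detection of the activation genes in single cells was low. Of thinned B-gated cells, 5.30% (4.03 to 6.83) in Naïve, 2.43% (1.47 to 3.77) in ConA+Veh, 5.69% (3.46 to 8.74) in ConA+TCDD and 2.47% (1.5 to 3.84) in ConA+FICZ had UMIs of 2 or more of *Cd80*, *Cd86*, *Cd83*, *Cd200* and *Mreg*. The shares of Naïve and ConA+TCDD were alike and lay above those of ConA+Veh and ConA+FICZ. The interval of ConA+TCDD slightly overlaps those of both ConA+Veh and ConA+FICZ. Cells with none of the 5 were 43.9% (40.9 to 47.0) of Naïve, 70.2% (66.8 to 73.4) of ConA+Veh, 62.6% (57.1 to 67.8) of ConA+TCDD and 67.8% (64.4 to 71.1) of ConA+FICZ. Without thinning the shares with 2 or more were 18.2%, 25.4%, 31.4% and 24.7%. Naïve, with the shallowest B-gated cells, was lowest. ConA+TCDD was highest, although its median B-gated cell held 4004 UMIs against 4398 in ConA+Veh. The part of depth in these unthinned shares was not tested. Thinned T-gated cells had 2 or more in 0.392% of ConA+TCDD and in 0 of the 421, 710 and 477 cells of the other libraries.

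**Figure D5:**
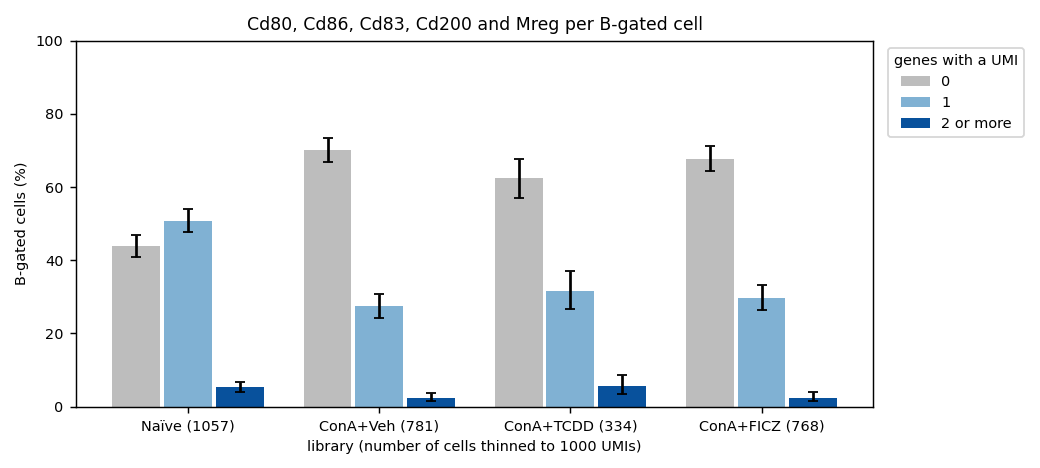
Share of B-gated cells, thinned to 1000 UMIs, with a UMI of 0, 1, or 2 or more of *Cd80*, *Cd86*, *Cd83*, *Cd200* and *Mreg* in each library (number of cells in parentheses), with exact 95% binomial intervals as bars. The share with none was lowest in Naïve, at 43.9%, and the share with 2 or more was 5.30% in Naïve and 5.69% in ConA+TCDD against 2.43% in ConA+Veh.

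For each pair among *Cd86*, *Cd83*, *Cd200* and *Mreg* in each library, the intervals of the share of cells with one gene overlapped between cells with and without a UMI of the other. *Cd80* had too few UMIs for this, with at most 1 thinned B-gated cell a library. *Cd200* was found in 5 of the 20 thinned ConA+TCDD cells with a *Cd86* UMI (25.0%, 8.66 to 49.1) and in 8.60% (5.74 to 12.3) of those without, intervals that overlap. In Naïve it was found in 5.35% (3.59 to 7.64) of cells with a *Cd83* UMI and in 9.36% (7.03 to 12.2) of those without. The receptors *Tnfrsf13c* and *Tnfrsf13b* were found in 0 of the 19 ConA+TCDD cells with 2 or more of the 5 genes (upper limit 17.6%), and in 11.5% and 9.57% of the 209 with none, too few cells to detect a difference. *Tnfrsf13c* was likewise in 0 of 19 such cells in ConA+Veh and in ConA+FICZ, against 17.2% and 10.9% of the cells with none of the 5, and in 4 of 56 in Naïve (7.14%, 1.98 to 17.3) against 14.2% (11.2 to 17.7). *Fcer2a* in Naïve was in 33.9% (21.8 to 47.8) of the cells with 2 or more and 31.5% (27.3 to 35.9) of those with none. Cells were thinned to a fixed total, so a UMI of one gene leaves slightly less room for another.

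The pattern of each gene over 22 units of gated cell type and library with at least 20 cells was set against 10429 genes by Pearson's r of log2(CPM + 10). These units share libraries and depth, and r is a description. *Tnfrsf13c* was most like *Ccr6* (0.993), a chemokine receptor of B cells, and *Ly6d* most like *Spib* (0.992), a transcription factor of B cells and plasmacytoid dendritic cells. *Cd86* was most like *Cd40* (0.932), *Cd83* like *Bank1* (0.95) and *Cd22* (0.948), an adaptor and a co-receptor of B cell antigen signalling, and *Tnfrsf13b* like *Bcl11a* (0.955) and *Tlr9* (0.934). *Cd80* followed the neutrophil pattern with *Hcar2* (0.990), *Cass4* (0.987) and *Trem1* (0.986). *Fcer2a* was most like *2010309G21Rik* (0.997), *Cd200* most like *Gm8369* (0.901) and then *Btla* (0.893), and *Mreg* had the loosest match, *C130026I21Rik* at 0.769. The best match of *Tnfsf13b*, *AC139671.1* at 0.962, rests on the few UMIs of that gene.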

How the data were processed

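Liver mononuclear cells were profiled with the 10x Genomics 5′ assay. Reads were aligned by the authors with Cell Ranger 3.0.2 (mm10), and the deposited tables hold raw UMI counts for each gene and barcode, not normalized. bcl2fastq is also listed in the submitters' processing notes. Each of the 4 libraries is 1 group, so no test was made and no p-value is given.

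Cells were gated on summed UMIs of 3 marker genes (at least 3), NK cells with at most 1 UMI of *Cd3d*, *Cd3e* and *Cd3g*. No cell was filtered, and no doublet caller was run. In its place, B-gated cells that met another gate, 1.20% to 5.30% of a library's B-gated cells, were left out as an alternative. UMIs were summed per gene, gate and library, divided by all UMIs of those cells and given as CPM. Ratios of at least 2-fold were counted among genes whose UMIs in both libraries came to 30 or more, with 3 counts as the floor for a library at 0. Levels in types with fewer than 20 cells are given as cells and UMIs, and the seed of the thinning was 1. Alternatives changed the gate, its genes, cells of several gates or low quality, the total, the weight of cells, the depth correction, the filter and the thinning depth.

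The genes named are the 10 genes, those of 7 lists (up to 3 examples with the widest gap in each direction, and further genes of the lists where their function bears on the text) and, for each of the 10, the genes most alike in pattern. The 10 genes and the lists were chosen with earlier results of these data known. *Cd74* and the groups by gate-gene UMIs were chosen after values had been seen. A gate that used a further gene is not reported here. The intervals were checked only on counts simulated from the Poisson distribution that they assume. That check does not cover uneven counts between cells, such as those of *Jchain*. Promoters are from RefSeq (GRCm38.p6) and gene positions from GENCODE for GRCm38. Scripts ran in Python 3.11.15 with scipy 1.17.1, numpy 2.4.6, matplotlib 3.10.9 and pandas 2.3.3.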

Additional observations from a re-analysis of the deposited data

How the results depend on the processing

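Of 240 ratios under the alternatives, 226 kept their direction and 210 lay within the counting interval of the value reported. No ratio of at least 2-fold changed direction. For ConA+Veh over Naïve, the number of genes at least 2-fold higher was 0 with a gate of at least 2 UMIs, a gate on *Cd22*, *Pax5* and *Ebf1*, a gate of at least 1 UMI and no other gate (both alternatives chosen after seeing the data) or a filter of 100 UMIs, and 3 (*Mreg*, *Tnfrsf13c* and *Ly6d*) with no correction for depth, where the number 2-fold lower was 1 (*Fcer2a*). For ConA+TCDD over ConA+Veh, the number higher was 0 with a gate of at least 5 UMIs, a gate scaled to depth, cells of several gates left out or no correction for depth, 2 (*Cd200* and *Mreg*) with the gate of at least 1 UMI, and 1 (*Mreg* in place of *Cd200*) with the gate on *Cd22*, *Pax5* and *Ebf1*. For ConA+FICZ over ConA+Veh the number lower was 0 with the filter of 100 UMIs, which leaves *Mreg* out. The share of B-gated cells with 2 or more of the 5 activation genes was 2.31%, 0.726%, 1.43% and 0.884% of the 4 libraries (order as above) when thinned to 500 UMIs, and 18.2%, 25.4%, 31.4% and 24.7% with no thinning. Apart from the filters, the thinning and the correction for depth, the cause of these differences was not tested. *Mreg*, *Cd80* and *Tnfsf13b* are limited by their few UMIs. No paired analysis was possible because each group has 1 library.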
